A study of Homo sapiens with 9 samples.

Results

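The microRNA genes described here were read on whole-transcript arrays from MDA-MB-231, a human breast cancer line established from a pleural effusion. They are the loci whose probe set carries a single microRNA gene symbol and whose mean over the 9 arrays was above 3.9 on the log2 RMA scale, with the brightest probe set kept where a gene had several. RMA is the background-corrected, normalised and summarised probe signal, and all levels below are log2 RMA. Of 1009 microRNA loci with such a probe set, 787 lay at or under this level and are left out, so 22.0% were kept, against 49.9% of all 22109 genes. Because the mean level chose the loci, levels are described and not tested.

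The cells fell into 3 groups of 3 arrays each. The 20 h group received YM-155 (sepantronium bromide), a small molecule known as a suppressor of survivin, at 14.6 ng/ml, which the labels call the LC50. For the 8 h group the compound was added stepwise to a sum of 83 ng/ml. The control group was untreated, and neither a time nor a vehicle is given for it. Since the treated groups differ in both dose and time, these effects cannot be told apart. The labels do not say whether replicates are separate cultures, and a p-value here measures only the spread between the samples, possibly a technical one. Precision is limited by having 3 arrays a group.

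MicroRNA genes are transcribed as long primary transcripts, alone or within an intron of a host gene. DROSHA with DGCR8 cuts out a hairpin, DICER1 trims it, and one strand is loaded into an Argonaute protein, where bases 2 to 8, the seed, pair with target mRNAs. The let-7 family represses growth genes such as HMGA2, MYC and RAS genes, and LIN28 proteins block its maturation. miR-21 is abundant in breast tumours and represses tumour suppressors. A probe set placed on a microRNA gene can read its primary or host transcript, so the values below do not separate primary from mature microRNA, and a higher level does not by itself mean more mature product.

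The mature sequences of the loci on which the results turn are given in RefSeq's form (GRCh38.p14), 5′ to 3′, with the seed in capitals. RefSeq held a microRNA sequence for 206 of the loci and a mature sequence for 200, with 272 distinct seeds among 291 mature sequences. Only 15 seeds were shared, by 32 loci. The first set below shares the let-7 seed GAGGUAG, and is shown because its 4 loci behaved differently from each other.
hsa-let-7a-5p (MIRLET7A2): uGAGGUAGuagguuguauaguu
hsa-let-7d-5p (MIRLET7D): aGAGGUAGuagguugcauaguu
hsa-let-7i-5p (MIRLET7I): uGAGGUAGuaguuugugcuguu
hsa-miR-98-5p (MIR98): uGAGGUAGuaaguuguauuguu

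The next pairs also share a seed within each pair, AGCUUAU for miR-21 and miR-590, GCUACAU for miR-221 and miR-222, and ACCCGUA for miR-100 and miR-99b. They are shown so that the arrays' values can be compared between loci of one seed: MIR221 and MIR222 were called in opposite directions at 20 h, MIR21 and MIR590 both fell at 20 h but were not both called at 8 h, and MIR100 fell while MIR99B was not called.
hsa-miR-21-5p (MIR21): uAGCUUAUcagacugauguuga
hsa-miR-590-5p (MIR590): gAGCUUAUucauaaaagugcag
hsa-miR-221-3p (MIR221): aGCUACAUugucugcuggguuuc
hsa-miR-222-3p (MIR222): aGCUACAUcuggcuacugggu
hsa-miR-100-5p (MIR100): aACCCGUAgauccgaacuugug
hsa-miR-99b-5p (MIR99B): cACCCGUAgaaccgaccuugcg

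The miR-181 sequences share ACAUUCA, while miR-27a and miR-23a, cut from neighbouring hairpins, have seeds of their own. They are shown for the same comparison, of loci with one seed and of loci side by side.
hsa-miR-181b-5p (MIR181B1): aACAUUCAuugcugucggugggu
hsa-miR-181c-5p (MIR181C): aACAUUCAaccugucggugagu
hsa-miR-181d-5p (MIR181D): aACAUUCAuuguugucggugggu
hsa-miR-27a-3p (MIR27A): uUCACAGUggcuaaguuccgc
hsa-miR-23a-3p (MIR23A): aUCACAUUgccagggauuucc

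Hairpins are printed for the loci with the largest fall and the largest rise at 20 h. MIRLET7A2 lies at chr11:122146522-122146593 on the minus strand and MIR3143 at chr6:27147626-27147688 on the plus strand. Capitals mark the mature arms of let-7a-2, and none are marked for miR-3143.
MIRLET7A2 hairpin: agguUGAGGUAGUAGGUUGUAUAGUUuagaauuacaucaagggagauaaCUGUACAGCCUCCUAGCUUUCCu
MIR3143 hairpin: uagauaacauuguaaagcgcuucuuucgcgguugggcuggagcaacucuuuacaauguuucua

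The arrays carried the markers of the line. VIM, CD44, FN1, AXL, EGFR and CAV1 had means from 8.05 to 10.8, and KRT18 5.26, while ESR1, PGR and KRT5 had 2.96, 2.01 and 2.30. EPCAM, at 6.08, CDH1, at 4.67, and GATA3, at 4.26, were above the level of 3.9, although the list used here counts them as low in this line. Markers of other cells, PTPRC, CD3E, HBB and ALB, lay between 1.75 and 2.58. Control replicate 3 was the least like its group: the SD of its difference from replicates 1 and 2, taken over genes above the median, was 0.312 and 0.313, and that between replicates 1 and 2 was 0.187. Its effect is given wherever leaving it out ended a call that is described singly below. Leaving it out also ended calls that enter only the counts, such as those of MIR139 and MIR324 at 20 h.

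The detected loci had a median level of 4.88 and reached 9.31, with 39 above 6 and 126 under 5. The other genes above the same level had a median of 5.93. The median spread of a locus within groups, as a pooled SD, was 0.221 log2 units, against 0.136 for those other genes. Over all 9 arrays the median locus had a range of 0.925, and 100 loci had a range of at least 1. In 50 loci (22.5%) exactly the same value stood on 2 or more arrays, against 31.9% of those other genes. What made the values equal was not tested. Just inside the level that chose the loci were MIR103A2, MIR619 and MIR545 at 3.93, 3.92 and 3.9, and just outside were MIR29A, MIR541 and MIR30E at 3.9, 3.89 and 3.88. In 33 loci 1 or more group means lay at or under the level, so that the mean over all arrays passed it through the groups where they were higher, and 17 of these were called in at least 1 comparison. Among the loci described below they are MIR554, MIR3620, MIR1206, MIR3122, MIR4668, MIR619, MIR545, MIR29C and MIR2392. The choice by level favours differences between their groups, so their p-values are given as descriptions only. Counts of called loci below include all such loci, other than the counts restricted to a mean above 5. The 5 brightest loci were MIR4737, MIR4442, MIR4525, MIR1299 and MIR3143.

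After 20 h of YM-155, 33 of the detected loci were higher and 33 lower than in control cells (limma, Benjamini-Hochberg adjusted p under 0.05 over all genes). Of all genes 13.1% were higher and 17.2% lower. The share of loci called in either direction was 29.7%, near the 30.3% of all genes, with 51.1% among all genes above the same level. In bulk RNA, fewer cells of a kind and less RNA per cell cannot be told apart. After 8 h, 17 loci were higher and 16 lower, against 5.93% and 6.28% of all genes. Together these were 14.9% of the loci, against 12.2% of all genes and 21.9% of those above the level. Between the treated groups, 27 loci were higher and 31 lower at 20 h than at 8 h, against 8.95% and 13.6% of all genes. Together these were 26.1% of the loci, against 22.6% of all genes and 38.2% of those above the level. A share near the background says nothing particular about microRNA loci, and the account below is of single loci.

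Changes of at least 2-fold that passed the test were seen for 7 loci higher and 13 lower at 20 h, together 9.01% of the loci. Of all genes the shares were 2.65% and 3.91%, together 6.55%. At 8 h they were 4 and 4 loci (3.60%), against 1.05% and 0.285% of all genes (1.33%). Between 20 h and 8 h they were 5 and 11 loci (7.21%), against 1.12% and 1.79% (2.91%). These 2-fold shares were not taken for genes above the level of 3.9 alone. The median log2 change of the loci was 0.08 at 20 h and -0.01 at 8 h, against 0.03 and -0.003 over all genes, and 0.07 against 0.02 for 20 h minus 8 h. Of the loci, 136 were called in no comparison and 86 in at least 1. The matching shares of all genes were not taken, so these counts say nothing particular about microRNA loci. Some counts rested on single arrays. Counts of higher loci at 8 h were 11 without 8 h replicate 2 and 9 without 8 h replicate 3, and counts of lower loci at 8 h were 8 without control replicate 2 and 9 without 8 h replicate 2. Counts of loci higher at 20 h than at 8 h were 17 without 8 h replicate 1, 16 without 8 h replicate 3, 17 without 20 h replicate 2 and 15 without 20 h replicate 3. Normalising the arrays by quantiles again gave 53 loci higher and 30 lower at 20 h, or 63.9% of calls higher in place of 50%.

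**Figure D1:**
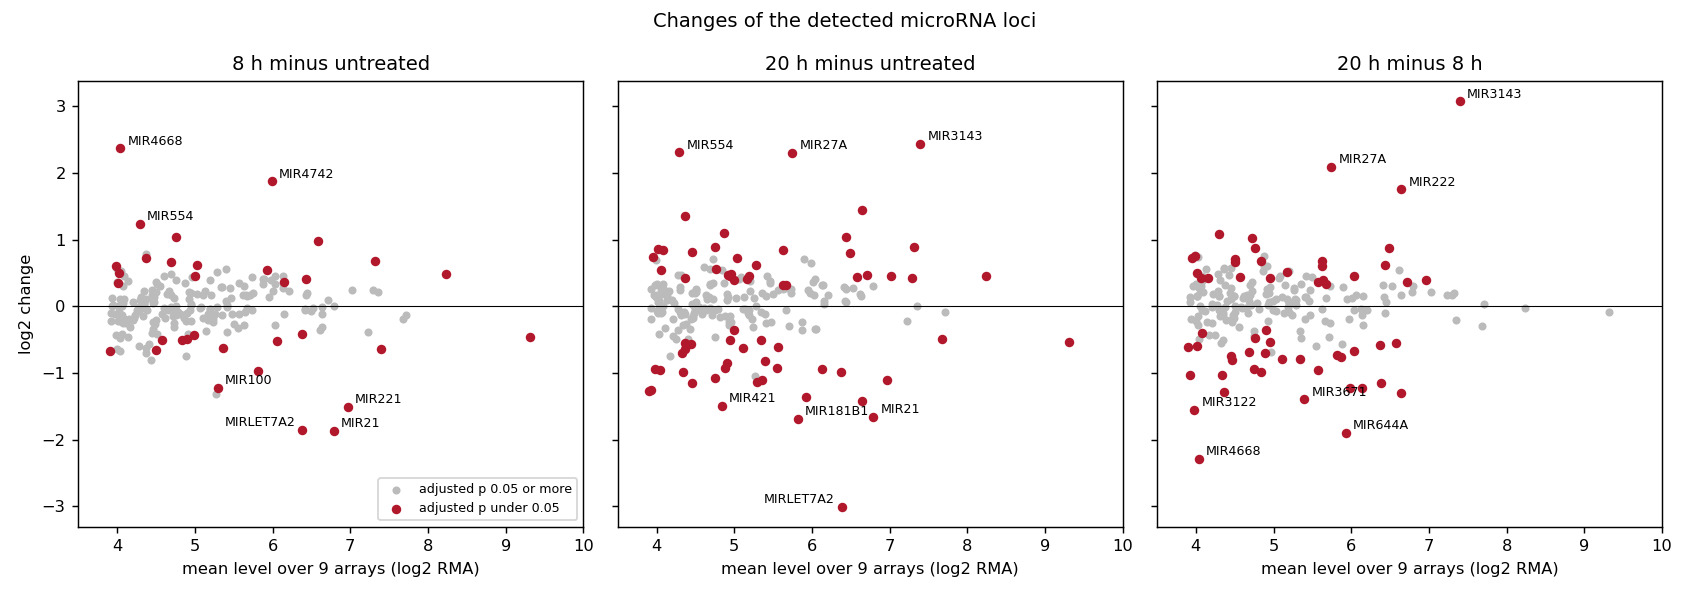
Log2 change of each detected microRNA locus (vertical axis) against its mean log2 RMA over 9 arrays (horizontal axis) for 8 h minus untreated, 20 h minus untreated and 20 h minus 8 h, with loci of adjusted p under 0.05 in red and the 7 largest called changes of each panel named. Called loci lie on both sides of 0 in every panel, from -3.0 for MIRLET7A2 at 20 h to 3.08 for MIR3143 in 20 h minus 8 h.

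The let-7 family showed a large fall at 1 locus and small or no changes at the others. MIRLET7A2, 1 of 3 genes that give mature let-7a, read 4.89, 4.79 and 5.32 on the 20 h arrays, 6.25, 6.17 and 6.02 on the 8 h arrays and 8.16, 8.24 and 7.62 on the control arrays. The 3 groups did not overlap, with the 20 h arrays lowest and the control arrays highest. Its log2 change was -3.0 ± 0.18 (SE) at 20 h, or 8.02-fold lower than control (limma adjusted p = 1.25e-06), and -1.86 ± 0.18 at 8 h (adjusted p = 1.44e-04). It was also lower at 20 h than at 8 h, by a log2 change of -1.15 (adjusted p = 0.00129).

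MIRLET7I read 4.69, 4.90 and 4.70 at 20 h, 4.11, 4.13 and 3.9 at 8 h and 4.56, 4.73 and 4.81 in control cells. Its 8 h arrays were all below the others, while the 20 h and control arrays overlapped. It fell by 0.65 at 8 h (limma adjusted p = 0.00263) and its change at 20 h was 0.06 (adjusted p = 0.701), with 20 h above 8 h by 0.72 (adjusted p = 8.02e-04). MIRLET7G, below the level of 3.9 with a mean of 3.59, had the same shape, at 3.86, 3.68 and 3.77 at 20 h, 3.10, 3.23 and 3.23 at 8 h and 3.79, 3.88 and 3.80 in control cells. Its log2 change was -0.64 at 8 h (adjusted p = 8.05e-04) and -0.05 at 20 h (adjusted p = 0.675).

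MIRLET7D read 5.36, 4.35 and 5.40 at 20 h, 4.53, 4.45 and 4.32 at 8 h and 4.98, 5.36 and 5.20 in control cells, and passed neither test against control, with log2 changes of -0.14 at 20 h and -0.75 at 8 h (limma adjusted p = 0.71 and 0.0762). One 20 h array, replicate 2, lay with the 8 h arrays. MIR98, a let-7 family member on the X chromosome inside HUWE1, read 5.64, 5.55 and 5.83 at 20 h, 5.46, 5.36 and 5.46 at 8 h and 5.45, 4.99 and 5.46 in control cells, with changes of 0.38 at 20 h (adjusted p = 0.0546) and 0.13 at 8 h (adjusted p = 0.641). All of its 20 h arrays were above all of its control arrays.

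The remaining let-7 loci lay under the level of 3.9, and none of them passed the test against control. MIRLET7E read 3.83, 3.99 and 3.83 at 20 h, 3.47, 3.98 and 3.83 at 8 h and 3.88, 3.58 and 3.98 in control cells. MIRLET7F1 read 3.68, 3.70 and 3.04 at 20 h, 3.68, 3.95 and 4.16 at 8 h and 3.80, 4.20 and 3.80 in control cells. In both, the groups overlapped. MIRLET7A1 read 3.03, 2.86 and 3.70 at 20 h, 2.41, 2.71 and 1.65 at 8 h and 2.71, 2.91 and 2.84 in control cells. Its 20 h arrays were above its 8 h arrays by 0.94 (limma adjusted p = 0.0298), a call lost without 8 h replicate 1 or 3 or 20 h replicate 1 or 3 (adjusted p from 0.0517 to 0.107), and with only 2 groups or the replicate block (adjusted p = 0.071 and 0.0571). MIRLET7C read 1.71, 1.59 and 1.67 at 20 h, 1.59, 1.55 and 1.5 at 8 h and 1.75, 1.41 and 1.62 in control cells. MIRLET7F2 read 1.49, 1.14 and 1.54 at 20 h, 1.51, 1.38 and 2.23 at 8 h and 1.46, 1.51 and 1.44 in control cells. Both were near the bottom of the scale. MIRLET7A3 and MIRLET7B had no probe set with a single symbol and are not analysed here, so 10 of 12 family loci were measured.

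**Figure D2:**
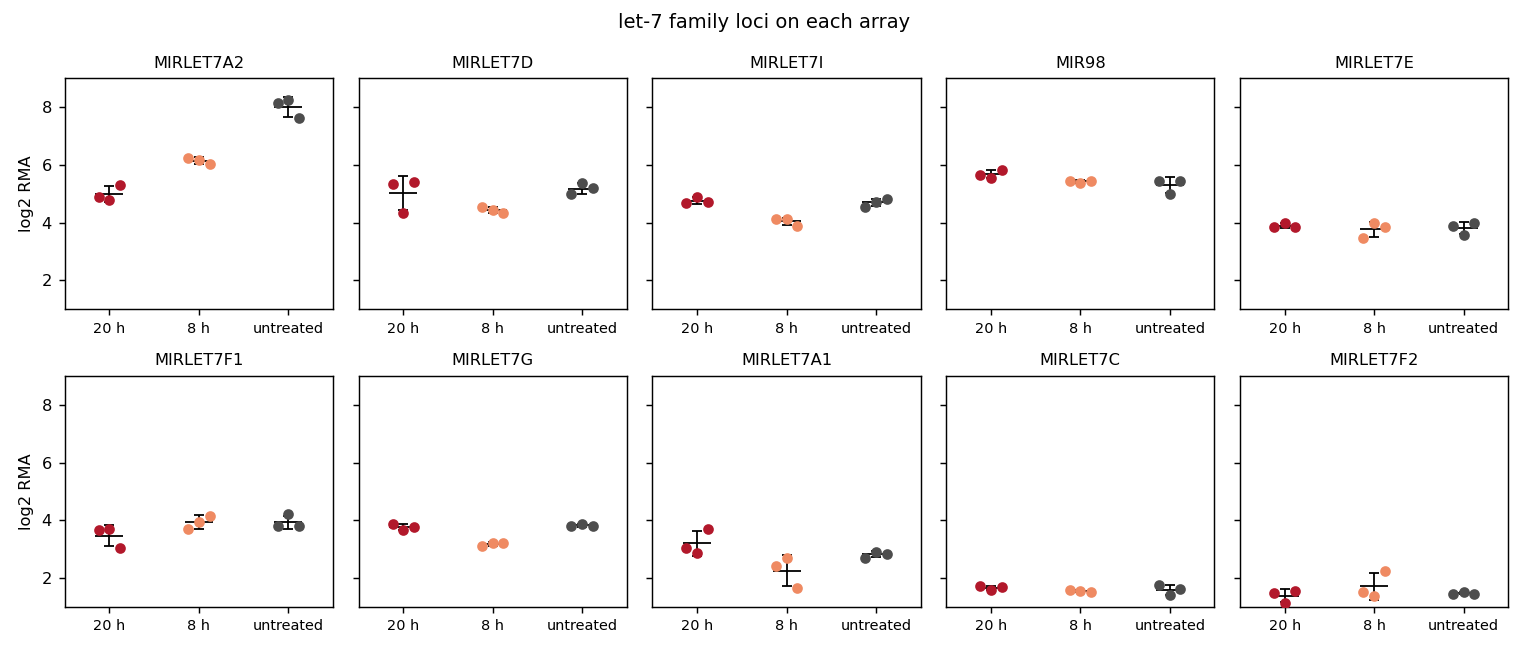
Level of the 10 measured let-7 family loci (log2 RMA, vertical axis) on each array at 20 h, 8 h and in untreated cells, with points for arrays and bars for the mean ± SD (n = 3). MIRLET7A2 is the 1 locus whose groups separate over several units, with means of 5.00 at 20 h, 6.15 at 8 h and 8.00 in untreated cells.

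MIRLET7A2 shares the span of the noncoding RNA MIR100HG with MIR125B1 and MIR100, which were also lower after YM-155. MIR100 read 5.06, 4.74 and 5.03 at 20 h, 4.55, 4.81 and 5.20 at 8 h and 6.09, 6.30 and 5.83 in control cells. Both treated groups were below all controls and overlapped each other. Its log2 change was -1.13 ± 0.17 (SE) at 20 h (limma adjusted p = 6.37e-04) and -1.22 ± 0.17 at 8 h (adjusted p = 0.00152). MIR125B1, under the level of 3.9, read 2.87, 2.96 and 2.83 at 20 h, 2.67, 3.51 and 3.78 at 8 h and 4.68, 4.67 and 4.59 in control cells, with changes of -1.76 at 20 h (adjusted p = 1.66e-04) and -1.32 at 8 h (adjusted p = 0.00372). The probe set of MIR100HG itself, with a mean of 4.36, changed by -0.22 at 20 h and 0.02 at 8 h and passed neither test (adjusted p = 0.12 and 0.931). MIR99B, which shares its seed with MIR100 and lies on another chromosome, read 6.62, 6.75 and 6.80 at 20 h, 6.42, 6.21 and 6.61 at 8 h and 6.54, 6.43 and 6.35 in control cells, and was not called (changes of 0.28 and -0.03).

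MIR21 fell by nearly as much in both treated groups. It read 6.46, 6.23 and 6.22 at 20 h, 6.04, 6.16 and 6.08 at 8 h and 8.15, 8.13 and 7.61 in control cells. No treated array came within 1 unit of a control array. The log2 change was -1.66 ± 0.14 (SE) at 20 h (limma adjusted p = 1.17e-05) and -1.87 ± 0.14 at 8 h (adjusted p = 3.84e-05), and the change of 0.21 between 20 h and 8 h did not pass the test (adjusted p = 0.335). Its host VMP1, an autophagy gene, had no single-symbol probe set and is not analysed here.

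MIR590, whose 5p strand has the seed of miR-21, was called against control only in the 20 h group. It read 5.35, 5.38 and 5.49 at 20 h, 6.82, 6.37 and 6.72 at 8 h and 6.45, 6.34 and 6.27 in control cells. Only its 20 h arrays stood apart. It fell by 0.95 at 20 h (limma adjusted p = 1.36e-04) and its change of 0.28 at 8 h was not called (adjusted p = 0.167). Its host gene EIF4H, a translation initiation factor, changed by -0.07 at 20 h and 0.05 at 8 h, and was not called.

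The loci whose values over the 9 arrays were most like those of MIR21, among the detected loci, were MIR221, with a Pearson r of 0.968, MIR100 with 0.954, MIR106B with 0.886, MIR4737 with 0.884 and MIRLET7A2 with 0.871. These coefficients describe 9 arrays in 3 groups and carry no test.

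MIR221 and MIR222, which lie 748 bases apart inside the noncoding RNA MIR222HG and repress the cell cycle inhibitor CDKN1B, were read in opposite directions at 20 h. MIR221 read 6.98, 6.57 and 6.63 at 20 h, 6.40, 6.20 and 6.39 at 8 h and 7.92, 7.81 and 7.78 in control cells. All treated arrays were below all controls, with log2 changes of -1.11 ± 0.12 (SE) at 20 h (limma adjusted p = 4.63e-05) and -1.50 ± 0.12 at 8 h (adjusted p = 4.30e-05). MIR222 read 7.67, 7.67 and 7.78 at 20 h, 5.69, 5.85 and 6.32 at 8 h and 6.29, 5.90 and 6.59 in control cells. Its 20 h arrays were above all others while the 8 h and control arrays overlapped. It rose by 1.45 ± 0.19 at 20 h (adjusted p = 1.95e-04), and its change at 8 h was -0.31 (adjusted p = 0.375). MIR222HG is not analysed here, as it had no single-symbol probe set.

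The higher level of MIR221 at 20 h than at 8 h, 0.40 on the log2 scale, was close to the threshold (limma adjusted p = 0.0335). That call was lost without 8 h replicate 1, 2 or 3 or 20 h replicate 1 (adjusted p from 0.0591 to 0.117) and with centring or only 2 groups (adjusted p = 0.0598 and 0.0607), whereas MIR222 was higher by 1.76 (adjusted p = 1.33e-04) and kept its call without any single array.

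MIR27A and MIR23A, hairpins 69 bases apart on chromosome 19, both rose at 20 h. MIR27A read 7.20, 7.27 and 7.16 at 20 h, 5.17, 5.26 and 4.91 at 8 h and 4.55, 4.61 and 5.56 in control cells. Its 20 h arrays stood more than 1.5 units above every other array, and its rise was 2.30 ± 0.23 (SE; limma adjusted p = 3.33e-05), with 0.21 at 8 h (adjusted p = 0.67). MIR23A read 4.94, 4.39 and 5.42 at 20 h, 4.23, 4.39 and 4.39 at 8 h and 4.31, 4.08 and 3.91 in control cells. It rose by 0.82 at 20 h (adjusted p = 0.0145), a call lost without control replicate 3 (adjusted p = 0.0531). Control replicate 3 had the highest MIR27A and the lowest MIR23A of the controls.

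**Figure D3:**
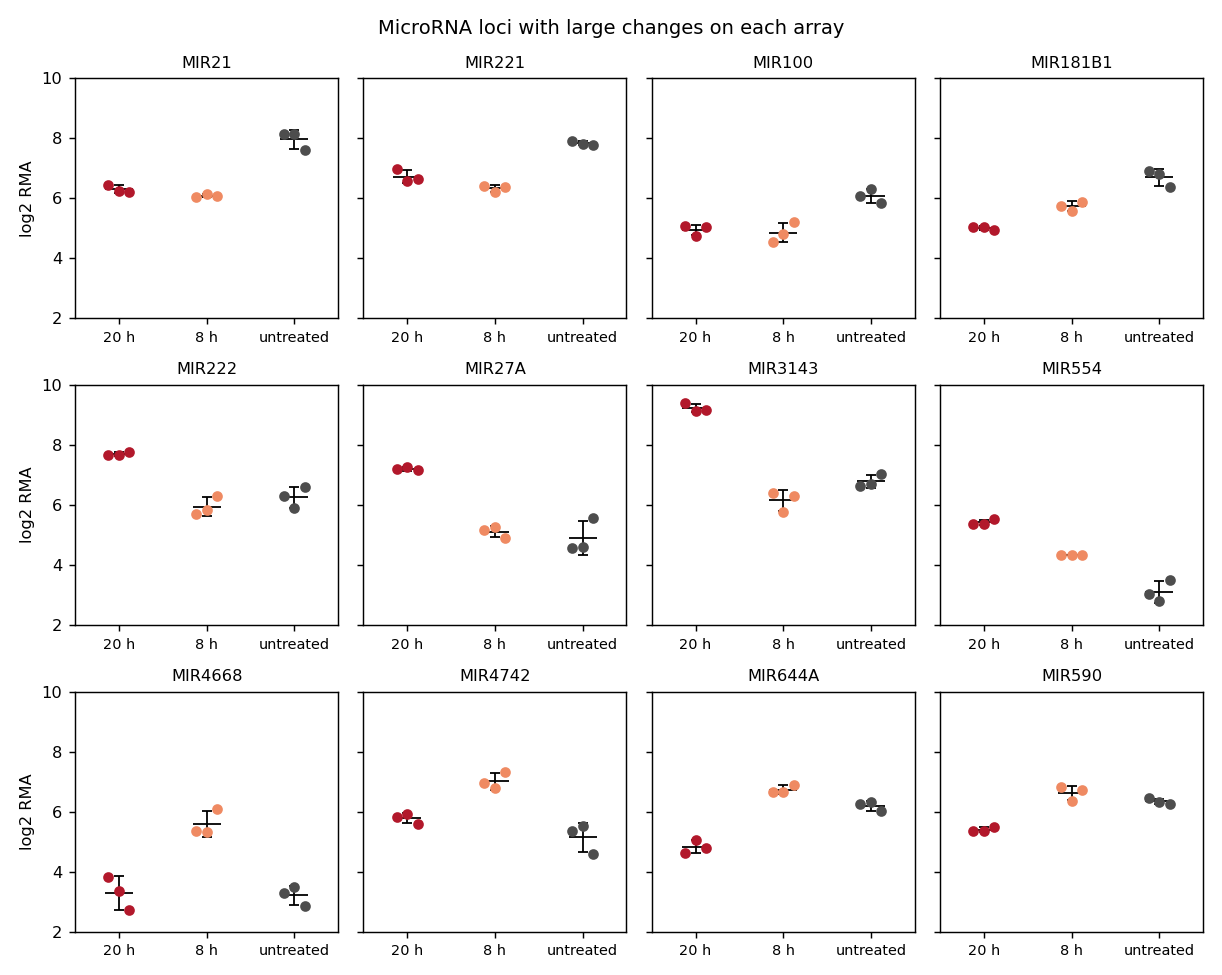
Level of 12 microRNA loci (log2 RMA, vertical axis) on each array at 20 h, 8 h and in untreated cells, with points for arrays and bars for the mean ± SD (n = 3). MIR21, MIR221, MIR100 and MIR181B1 are lower in both treated groups than in untreated cells, MIR222, MIR27A and MIR3143 are high only at 20 h, and MIR4668 and MIR4742 are highest at 8 h.

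The miR-181 loci share a seed and lie at several places in the genome. MIR181B1 read 5.05, 5.03 and 4.95 at 20 h, 5.75, 5.57 and 5.89 at 8 h and 6.92, 6.80 and 6.38 in control cells, so that the groups did not overlap. It fell by 1.69 ± 0.14 (SE) at 20 h (limma adjusted p = 8.82e-06) and by 0.97 ± 0.14 at 8 h (adjusted p = 0.00146), while its host MIR181A1HG changed by 0.02 and 0.10 and was not called. MIR181C and MIR181D, neighbours on chromosome 19, read from 3.83 to 4.13 and from 5.15 to 5.82 over all arrays, with changes of 0.17 and 0.15 at 20 h that were not called. Among loci under the level of 3.9, MIR181B2 fell by 0.76 at 20 h (adjusted p = 0.00343).

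MIR25, MIR93 and MIR106B, paralogs of the miR-17/92 cluster, lie in 1 intron span of MCM7, a subunit of the replicative helicase. MIR25 read 4.50, 4.40 and 4.6 at 20 h, 4.81, 5.01 and 4.73 at 8 h and 5.42, 5.36 and 5.27 in control cells, and fell by 0.85 at 20 h (limma adjusted p = 7.59e-05) and by 0.50 at 8 h (adjusted p = 0.00767). MIR106B read 4.76, 4.89 and 5.05 at 20 h, 4.73, 4.92 and 4.82 at 8 h and 5.25, 5.27 and 5.22 in control cells, with falls of 0.35 and 0.42 (adjusted p = 0.016 and 0.015). Its 20 h call was lost without control replicate 2 or 20 h replicate 1 and its 8 h call without control replicate 2 or 8 h replicate 1 (adjusted p from 0.0505 to 0.0645). With quantile normalisation again its 20 h fall was 0.22 (adjusted p = 0.124). MIR93, between them, read 3.98, 4.0 and 4.31 at 20 h, 3.66, 3.99 and 4.16 at 8 h and 3.97, 4.06 and 4.05 in control cells and was not called. MCM7 fell by 0.42 at 20 h (adjusted p = 0.00212) and its change of -0.18 at 8 h was not called. Of 15 loci listed for the cluster and its paralogs, 9 were measured and 3 reached the level of 3.9.

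MIR421 and MIR545 lie in FTX, a noncoding RNA of the X chromosome. MIR421 read 4.08, 3.86 and 4.09 at 20 h, 4.92, 5.05 and 5.02 at 8 h and 5.64, 5.74 and 5.13 in control cells, and MIR545 read 2.94, 3.40 and 3.49 at 20 h, 3.78, 3.82 and 4.06 at 8 h and 4.72, 4.67 and 4.26 in control cells. At both, the 3 groups followed one another without overlap. At 20 h MIR421 fell by 1.49 and MIR545 by 1.27 (limma adjusted p = 3.04e-05 and 2.14e-04), and FTX fell by 0.56 (adjusted p = 0.00396). MIR545 had group means of 3.28 at 20 h, 3.88 at 8 h and 4.55 in control cells, so it passed the level of 3.9 through the control group. That favours the falls of MIR545, and their p-values are only descriptions. At 8 h the falls were 0.51 and 0.66 (adjusted p = 0.0486 and 0.028). The 8 h call of MIR545 was lost without control replicate 1 or 2 or 8 h replicate 1 or 2 (adjusted p from 0.0912 to 0.099) and with the replicate block (adjusted p = 0.0537). That of MIR421 was lost without any single array other than control replicate 3 (adjusted p from 0.0609 to 0.159), and also with quantile normalisation again, centring, only 2 groups, trended variance or the replicate block (adjusted p from 0.0511 to 0.104).

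**Figure D4:**
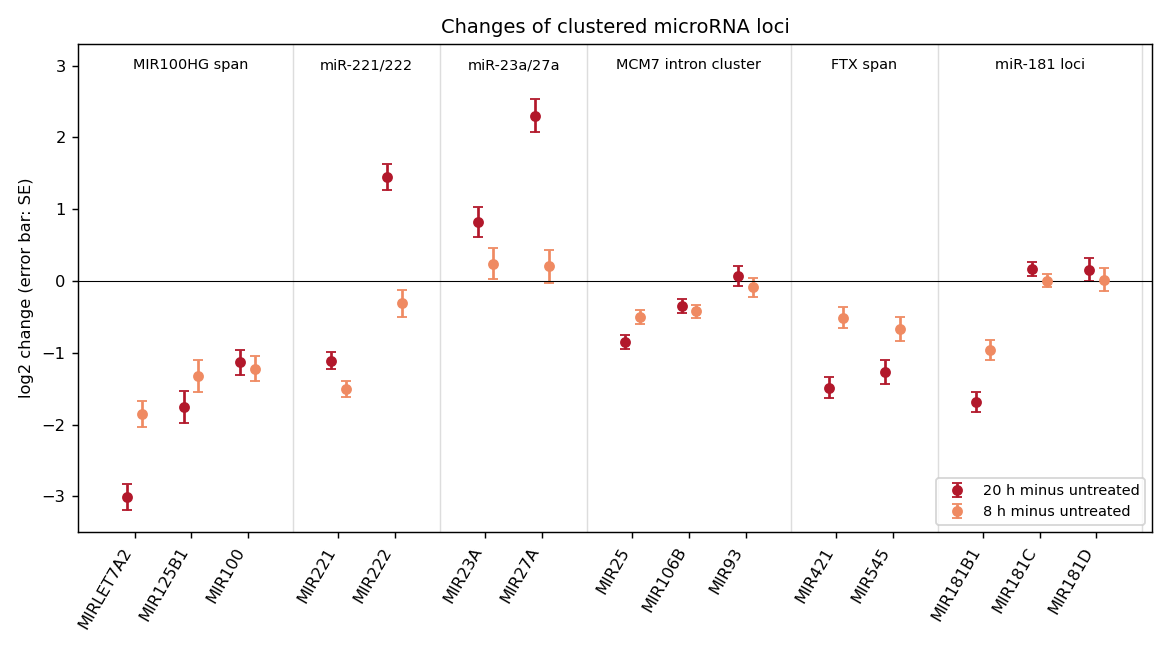
Log2 change with its SE (vertical axis) of microRNA loci grouped by shared transcript span or family, for 20 h minus untreated (red) and 8 h minus untreated (orange). The 3 loci of the MIR100HG span all lie below 0, MIR221 and MIR222 lie on opposite sides at 20 h (-1.11 and 1.45), and MIR181B1 lies apart from MIR181C and MIR181D.

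Other families had few called members. MIR29C, whose family represses collagen genes, read 3.10, 3.91 and 3.65 at 20 h, 3.54, 4.36 and 4.24 at 8 h and 4.74, 4.50 and 4.31 in control cells, and fell by 0.96 at 20 h (limma adjusted p = 0.012), lost without control replicate 1 (adjusted p = 0.0506). Its 20 h mean, 3.55, lay under the level of 3.9, so these p-values are only descriptions. MIR30C2 read 4.30, 4.89 and 4.62 at 20 h, 5.05, 5.01 and 5.35 at 8 h and 5.19, 5.02 and 5.10 in control cells, and fell by 0.50 at 20 h (adjusted p = 0.0258), lost without control replicate 1 or 3 or 20 h replicate 1 or 3 (adjusted p from 0.0564 to 0.0852) or with quantile normalisation again (adjusted p = 0.0751). Under the level of 3.9, MIR29A fell by 1.09 at 20 h (adjusted p = 0.00127), and at 8 h by 0.66 (adjusted p = 0.0468), the 8 h call being lost without any single array other than control replicate 1 or 20 h replicate 1 (adjusted p from 0.0623 to 0.163) and under 4 other settings (adjusted p from 0.0591 to 0.0884). MIR30E rose by 0.45 at 20 h (adjusted p = 0.0334), lost without any single control array or 20 h replicate 1 or 3 (adjusted p from 0.0512 to 0.123), and with only 2 groups or the replicate block (adjusted p = 0.0548 and 0.058). MIR30A had falls of 0.69 at 20 h and 0.81 at 8 h (adjusted p = 0.0428 and 0.0456). Its 20 h call was lost without replicate 1 or 2 of any group (adjusted p from 0.0501 to 0.148), its 8 h call also without 20 h replicate 3 (adjusted p from 0.0559 to 0.151), and both with only 2 groups or the replicate block (adjusted p from 0.0644 to 0.101). MIR210, the microRNA induced by hypoxia, read 7.07, 6.74 and 7.17 at 20 h, 6.62, 6.58 and 6.66 at 8 h and 6.41, 6.5 and 6.66 in control cells, and rose by 0.47 at 20 h (adjusted p = 0.0104). None of the 5 miR-200 loci, epithelial microRNAs, reached the level of 3.9, and their means lay between 1.79 and 3.15. Of the miR-15/16, miR-34 and miR-200 loci that were measured, none was called in any comparison.

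The highest called rise at 20 h was that of MIR3143, which lies in the histone gene cluster of chromosome 6. It read 9.39, 9.16 and 9.16 at 20 h, 6.40, 5.76 and 6.31 at 8 h and 6.64, 6.71 and 7.03 in control cells. The 20 h arrays were more than 2 units above all others. Its log2 change at 20 h was 2.44 ± 0.17 (SE, limma adjusted p = 3.12e-06). The change relative to 8 h was 3.08, given without a test for the reason stated below. The neighbouring histone gene H2BC12, on the opposite strand, changed by -0.12 at 20 h (adjusted p = 0.477) and fell by 0.70 at 8 h (adjusted p = 0.0026), and H2AC12, the other neighbour, had a mean of 2.10 and was not called.

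MIR554, in an intron of the tuftelin gene TUFT1, rose in both treated groups. It read 5.37, 5.36 and 5.53 at 20 h, 4.34, 4.34 and 4.35 at 8 h and 3.03, 2.79 and 3.51 in control cells. The groups did not overlap, with rises of 2.31 ± 0.15 (SE) at 20 h and 1.24 ± 0.15 at 8 h (limma adjusted p = 2.38e-06 and 7.06e-04). TUFT1 rose by 1.30 and 1.16.

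Smaller rises at 20 h were seen at MIR3620, MIR3150A, MIR4454, MIR574 and MIR4326. MIR3620, in ARF1, read 4.77, 5.02 and 5.21 at 20 h, 4.45, 4.53 and 4.35 at 8 h and 4.20, 3.03 and 3.72 in control cells, a rise of 1.35 (limma adjusted p = 0.00163). MIR3150A read 5.61, 5.37 and 5.49 at 20 h, 4.70, 4.79 and 4.73 at 8 h and 5.02, 3.56 and 4.57 in control cells, a rise of 1.11 (adjusted p = 0.013). In both, control replicate 2 was the lowest array, and without it the rise of MIR3150A was 0.70 (adjusted p = 0.00476). MIR4454 read 7.08, 6.93 and 6.96 at 20 h, 6.23, 6.47 and 6.39 at 8 h and 5.73, 6.10 and 6.03 in control cells, a rise of 1.04 at 20 h (adjusted p = 5.66e-05). Its rise of 0.41 at 8 h (adjusted p = 0.0391) was lost without control replicate 1, 8 h replicate 2 or 3, or 20 h replicate 1, 2 or 3 (adjusted p from 0.0519 to 0.135), and with only 2 groups or the replicate block (adjusted p = 0.0841 and 0.0593).

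MIR574 read 7.50, 7.77 and 7.79 at 20 h, 7.61, 7.42 and 7.40 at 8 h and 6.55, 6.83 and 7.0 in control cells. Both treated groups were above all controls, with rises of 0.89 at 20 h and 0.68 at 8 h (limma adjusted p = 4.08e-04 and 0.00681). Its host FAM114A1 went the other way at 20 h, with a fall of 0.35 (adjusted p = 0.0357) that was lost without control replicate 1 or 2 or 20 h replicate 2 or 3 (adjusted p from 0.0657 to 0.12), and with quantile normalisation again, only 2 groups or the replicate block (adjusted p from 0.053 to 0.0723). MIR4326 read 4.96, 5.64 and 5.44 at 20 h, 4.31, 4.24 and 4.84 at 8 h and 4.26, 4.34 and 4.77 in control cells, and rose by 0.89 at 20 h (adjusted p = 0.00878). All of its 20 h arrays were above all the others. It was also higher at 20 h than at 8 h, by 0.88 (adjusted p = 0.0132), a call lost without 8 h replicate 1 or 2 or 20 h replicate 2 or 3 (adjusted p from 0.0512 to 0.056).

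Among the falls at 20 h not yet described, MIR570 read 5.18, 5.89 and 6.14 at 20 h, 6.90, 6.95 and 7.26 at 8 h and 7.42, 7.04 and 6.99 in control cells, a fall of 1.41 ± 0.22 (SE; limma adjusted p = 7.20e-04). MIR619, in the cofilin phosphatase gene SSH1, read 2.65, 3.64 and 3.18 at 20 h, 3.94, 4.36 and 4.28 at 8 h and 4.55, 4.49 and 4.21 in control cells, a fall of 1.26 (adjusted p = 0.00141). In both, the 20 h arrays were below all others and the 8 h and control arrays overlapped. The 20 h mean of MIR619, 3.16, lay under the level of 3.9, so its p-value is only a description. SSH1 itself changed by 0.16 at 20 h (adjusted p = 0.122). MIR3671, in the kinase gene JAK1, read 4.57, 4.58 and 4.82 at 20 h, 5.72, 6.31 and 6.11 at 8 h and 5.61, 5.66 and 5.17 in control cells. It fell by 0.83 at 20 h (adjusted p = 0.00372), while its change of 0.57 at 8 h (adjusted p = 0.0572) and that of JAK1, 0.03 at 20 h, were not called.

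At 8 h, 2 loci inside protein-coding genes had the highest values of called rises. MIR4668, in the ceramide glucosyltransferase gene UGCG, read 3.84, 3.35 and 2.72 at 20 h, 5.35, 5.34 and 6.08 at 8 h and 3.3, 3.48 and 2.86 in control cells. Its mean over all arrays, 4.04, passed the level of 3.9 only through the 8 h group, where its mean was 5.59. Its rise at 8 h was 2.37 ± 0.29 (SE, limma adjusted p = 6.41e-04). The choice by level favours this rise, so its p-value is only a description. Its change at 20 h was 0.09 (adjusted p = 0.864). UGCG rose by 0.67 at 20 h and 0.85 at 8 h (adjusted p = 0.0024 and 0.0019). MIR4742, in WDR26, read 5.84, 5.93 and 5.61 at 20 h, 6.95, 6.79 and 7.34 at 8 h and 5.35, 5.52 and 4.58 in control cells. The 3 groups did not overlap, the rise at 8 h was 1.88 ± 0.23 (adjusted p = 6.03e-04), and the change of 0.64 at 20 h did not pass (adjusted p = 0.0557). WDR26 changed by 0.11 at 20 h and 0.38 at 8 h and was not called.

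MIR1250, MIR604 and MIR494 had smaller rises at 8 h. MIR1250, in the kinase gene AATK, read 5.01, 4.6 and 4.75 at 20 h, 5.20, 5.37 and 5.23 at 8 h and 4.53, 4.12 and 4.03 in control cells, a rise of 1.04 at 8 h (limma adjusted p = 0.00126). MIR604, in the supervillin gene SVIL, read 6.49, 6.53 and 6.61 at 20 h, 7.03, 6.99 and 7.25 at 8 h and 6.33, 6.12 and 5.87 in control cells, a rise of 0.98 at 8 h (adjusted p = 6.72e-04). At both, all treated arrays were above all controls and the 8 h arrays were the highest. At 20 h MIR1250 rose by 0.56 (adjusted p = 0.0131), lost without control replicate 2 or 20 h replicate 1 (adjusted p from 0.0523 to 0.0532), and MIR604 by 0.44 (adjusted p = 0.0191), lost without control replicate 3 or 20 h replicate 3 (adjusted p from 0.0518 to 0.0652). MIR494 read 4.24, 4.58 and 4.55 at 20 h, 5.01, 5.15 and 5.25 at 8 h and 4.82, 4.38 and 4.21 in control cells, a rise of 0.66 at 8 h (adjusted p = 0.02), lost without control replicate 2 or 3 or 8 h replicate 2 or 3 (adjusted p from 0.0546 to 0.0793).

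Against control, 4 loci were called in opposite directions at 20 h and 8 h. The share of all genes with opposite calls was not taken. The 2 comparisons share their control arrays, and loci chosen for opposite calls differ between 20 h and 8 h by that choice, so that difference is given for them without a test. MIR3143, described above, was higher at 20 h and, by 0.64, lower at 8 h (limma adjusted p = 0.0358). That 8 h call was lost without any single array other than 8 h replicate 1 or 20 h replicate 1 (adjusted p from 0.0532 to 0.101), and with only 2 groups (adjusted p = 0.0892).

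MIR644A, in the ubiquitin ligase gene ITCH, read 4.64, 5.07 and 4.81 at 20 h, 6.65, 6.66 and 6.91 at 8 h and 6.26, 6.33 and 6.02 in control cells. The groups did not overlap. It fell by 1.36 at 20 h (limma adjusted p = 2.52e-05) and rose by 0.54 at 8 h (adjusted p = 0.0234), the rise being lost without control replicate 1 or 3 or 8 h replicate 3 (adjusted p from 0.0531 to 0.0906), and 20 h was below 8 h by a log2 change of -1.90. ITCH changed by -0.12 at 20 h and 0.09 at 8 h and was not called.

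MIR3122, in DTL, a substrate receptor of the CUL4 ubiquitin ligase, read 3.51, 2.89 and 3.06 at 20 h, 4.6, 4.59 and 4.91 at 8 h and 4.09, 4.23 and 3.97 in control cells. It fell by 0.94 at 20 h (limma adjusted p = 0.00104), with a rise of 0.60 at 8 h (adjusted p = 0.0329) that was lost without any single control or 8 h array (adjusted p from 0.0517 to 0.123) and with the replicate block (adjusted p = 0.0586). The 20 h mean of MIR3122, 3.15, lay under the level of 3.9, so its p-values are only descriptions. DTL fell by 1.55 at 20 h, and its change of -0.15 at 8 h was not called. MIR1206 read 3.99, 3.65 and 3.62 at 20 h, 4.91, 5.14 and 5.06 at 8 h and 4.29, 4.68 and 3.94 in control cells. Its 8 h arrays were above all controls, while its 20 h arrays overlapped control replicate 3. It rose by 0.73 at 8 h (adjusted p = 0.0204), lost without control replicate 1 or 8 h replicate 2 or 3 (adjusted p from 0.0626 to 0.0756), and fell by 0.55 at 20 h (adjusted p = 0.0342), lost without control replicate 1 or 2, 8 h replicate 3 or 20 h replicate 2 or 3 (adjusted p from 0.0513 to 0.116) and with only 2 groups (adjusted p = 0.0773). Without control replicate 2 the 20 h fall was 0.36. The 20 h mean of MIR1206, 3.75, lay under the level of 3.9, so its p-values are only descriptions.

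Of the loci that were higher at 20 h than at 8 h, MIR92B, MIR130B and MIR2392 have not been described. MIR92B, with the seed of MIR25, read 4.80, 5.48 and 5.63 at 20 h, 4.04, 4.58 and 4.23 at 8 h and 4.45, 4.29 and 5.05 in control cells, and was higher by 1.02 (limma adjusted p = 0.0143), lost without 8 h replicate 1 or 3 or 20 h replicate 2 or 3 (adjusted p from 0.0539 to 0.0623). MIR130B read 6.82, 6.84 and 7.48 at 20 h, 6.37, 5.72 and 6.43 at 8 h and 6.39, 5.86 and 6.49 in control cells, and was higher than at 8 h by 0.87 (adjusted p = 0.0268), lost without 8 h replicate 2 or 20 h replicate 3 (adjusted p from 0.0913 to 0.0986). MIR2392 read 4.14, 4.09 and 4.79 at 20 h, 3.69, 3.47 and 3.60 at 8 h and 4.09, 3.73 and 4.26 in control cells, and was higher by 0.75 (adjusted p = 0.0168), lost without 8 h replicate 2 or 3 (adjusted p from 0.0525 to 0.0586). These differences were at the edge of what 3 arrays a group could show.

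Of the 5 brightest loci, MIR3143 had the rise at 20 h described above, and the other 4 had called log2 changes of at most 0.54 in size against control. MIR4737 read 8.89, 9.20 and 9.23 at 20 h, 9.18, 9.18 and 9.20 at 8 h and 9.69, 9.71 and 9.53 in control cells, and fell by 0.54 at 20 h and 0.46 at 8 h (limma adjusted p = 0.00232 and 0.0161). Its 8 h call was lost without control replicate 1 or 2 or 8 h replicate 1 or 2 (adjusted p from 0.0539 to 0.059). The span of HEATR6 overlaps it, and HEATR6 fell by 0.48 at 20 h (adjusted p = 0.00555). MIR4442 read 8.40, 8.28 and 8.46 at 20 h, 8.40, 8.28 and 8.55 at 8 h and 7.97, 7.92 and 7.89 in control cells, and rose by 0.46 and 0.48 (adjusted p = 0.00293 and 0.00633), whereas the topoisomerase gene TOP2B, which it overlaps, fell by 0.63 at 20 h (adjusted p = 0.00965). MIR4525 read 7.69, 7.76 and 7.63 at 20 h, 7.67, 7.55 and 7.74 at 8 h and 7.99, 7.74 and 7.62 in control cells, and was not called. MIR1299 read 7.40, 7.26 and 7.59 at 20 h, 7.66, 7.71 and 7.78 at 8 h and 7.69, 7.86 and 8.17 in control cells, and fell by 0.49 at 20 h (adjusted p = 0.0139), lost without 20 h replicate 2 (adjusted p = 0.0579).

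Of the 206 detected loci with a RefSeq microRNA sequence, 122 lie inside a RefSeq gene whose strand was known and the same. For 98 of these the host gene was itself tested, over 89 hosts. Genes whose strand was not known, such as HEATR6 at MIR4737 and MIR570HG at MIR570, are left out of the counts below. At 20 h, 16 of the loci with a tested host were higher, and their hosts were called higher for 7, lower for 1 and not called for 8. Of 19 that were lower, the hosts were called lower for 9, higher for 0 and not called for 10. At 8 h the hosts of 12 higher loci were called higher for 2, lower for 0 and not called for 10, and those of 9 lower loci were called lower for 2, higher for 0 and not called for 7. Of 10 loci higher at 20 h than at 8 h, the hosts were called higher for 0, lower for 2 and not called for 8, and of 20 lower they were called lower for 5, higher for 0 and not called for 15. Over all 98 pairs, 12 hosts were called higher and 24 lower at 20 h, 7 and 5 at 8 h, and 7 and 16 for 20 h minus 8 h. Across the pairs, the changes of locus and host had a Pearson r of 0.45 at 20 h, 0.48 at 8 h and 0.34 for 20 h minus 8 h. These describe pairs that share arrays and, in part, hosts, and carry no test.

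Pairs in which both moved together at 20 h included MIR571 with the zinc finger gene ZNF141 (log2 changes of -1.10 and -1.84), MIR548L with the repair nuclease gene MRE11 (-1.08 and -1.27) and MIR3191 with the pro-apoptotic gene BBC3 (0.42 and 0.89), each passing the test (limma). In MIR33B and SREBF1, the cholesterol and fatty acid regulator that holds it, the rises were 0.49 and 0.56 (adjusted p = 0.0151 and 0.0132). The MIR33B call was lost without control replicate 1 or 20 h replicate 2 (adjusted p from 0.0591 to 0.0603), and that of SREBF1 without control replicate 1 or 2 or 20 h replicate 3 (adjusted p from 0.0525 to 0.0566). Loci that fell while the host was not called included MIRLET7A2, MIR100, MIR181B1, MIR644A, MIR619, MIR590 and MIR3671, with the host values given above. Whether such probe sets read primary, host or other transcripts was not tested.

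**Figure D5:**
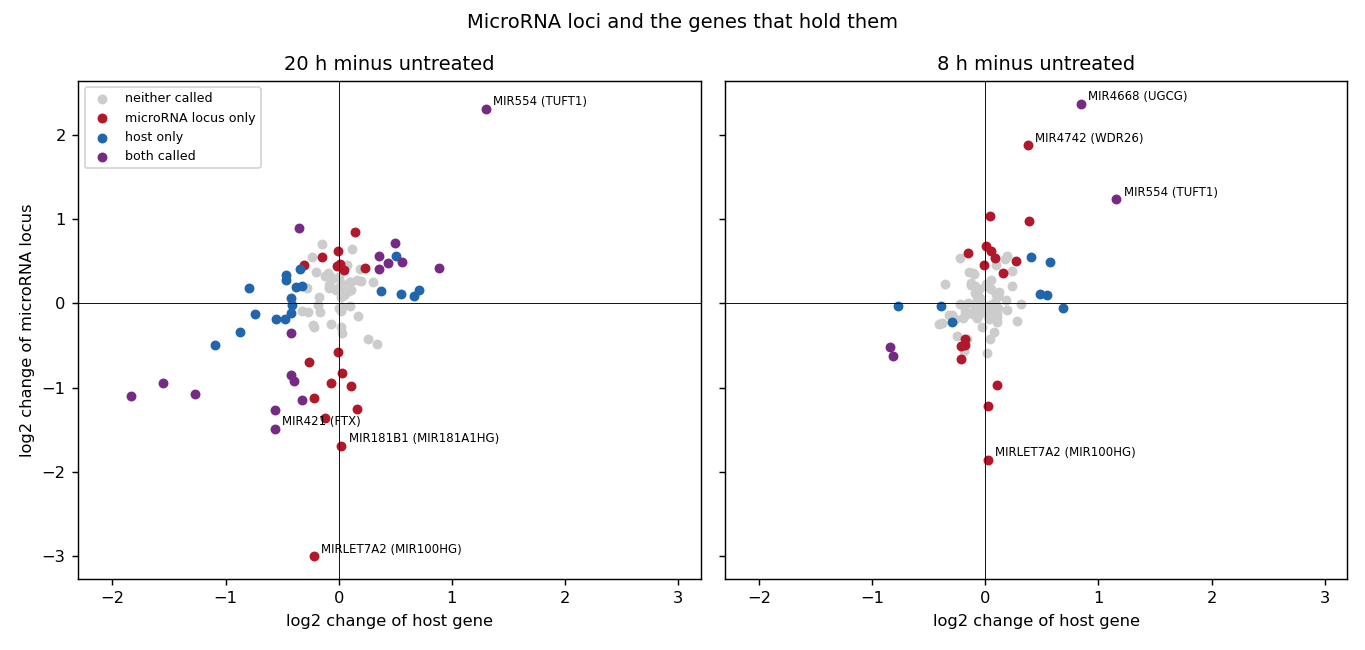
Log2 change of each microRNA locus (vertical axis) against that of the gene that holds it on the same strand (horizontal axis), for 98 pairs, at 20 h minus untreated and 8 h minus untreated, coloured by which of the pair had an adjusted p under 0.05. MIR554 and TUFT1 lie together at the upper right of both panels, and MIRLET7A2 lies lowest in both with its host near 0 (host changes of -0.22 at 20 h and 0.02 at 8 h).

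The base composition of the hairpins, which the rule did not use, differed with level and with change. The median GC content was 57.3% for the 187 loci with a RefSeq hairpin, against 46.0% for 652 microRNA loci at or under the level of 3.9. Over all 839 hairpins GC content and level had a Spearman rho of 0.54, but among the 187 it was -0.05. Loci called higher at 20 h had a median GC content of 57.4% (n = 28) and loci called lower 45.9% (n = 25). Over the 187, GC content and log2 change had a rho of 0.24 at 20 h and -0.02 at 8 h. The loci share arrays and normalisation, GC content also bears on probe hybridisation, and the part of either in these relations was not tested.

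Of 28 genes for the processing and silencing of microRNAs, 25 were tested. At 20 h, 2 were higher and 10 lower, with a median log2 change of -0.12 against 0.03 over all genes. Of all genes 13.1% were higher and 17.2% lower at 20 h, with 51.1% called among those above the level. DROSHA fell by 0.94, its helicase partner DDX17 by 1.07, the exonuclease gene PARN by 0.91, the uridylyltransferase gene TUT4 by 0.82, DICER1 by 0.75 and the hairpin export gene XPO5 by 0.38 (limma adjusted p from 3.10e-06 to 0.00563). AGO2, the slicing Argonaute, rose by 1.14 at 20 h and 0.95 at 8 h (adjusted p = 1.99e-05 and 3.42e-04), and TUT7 rose by 0.44 and 0.56 (adjusted p = 0.00876 and 0.00719). At 8 h, 2 were higher and 2 lower, against 5.93% and 6.28% of all genes, with 21.9% called among those above the level. The falls at 8 h were in DROSHA, by 0.31 (adjusted p = 0.022), and TSN, by 0.38 (adjusted p = 0.0191). The first was lost with the replicate block (adjusted p = 0.058) and without control replicate 2 or any 8 h array, and the second without control replicate 1 or 2 or 8 h replicate 1 or 2 (adjusted p from 0.052 to 0.0762). No list was tested as a set, and the same backgrounds hold for the lists below.

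Of 30 known let-7 targets 25 were tested, and at 20 h 7 were higher and 7 lower, with a median of -0.08. At 8 h, 5 were higher and 2 lower, with a median of -0.03. ARID3B rose by 2.06 at 20 h and 1.70 at 8 h, and MYC by 2.43 and 1.25 (limma adjusted p from 4.13e-06 to 0.00273). CDC34 and CCND2, both cell cycle genes, rose by 1.15 and 1.11 at 20 h. HMGA2, the target most often used to read let-7 activity, fell by 1.11 at 20 h and 0.64 at 8 h (adjusted p = 3.40e-05 and 0.00436), and DNA2, a replication nuclease gene, by 2.12 and 0.78. IGF2BP3, an mRNA-binding protein gene, fell by 1.10 at 20 h. The targets thus moved both ways.

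Of 20 known miR-21 targets 15 were tested, and at 20 h 4 were higher and 7 lower, with a median of -0.18. At 8 h, 6 were higher and 1 lower, with a median of 0.11 against -0.003 over all genes. PELI1, a ubiquitin ligase gene, rose by 2.15 at 20 h and 1.47 at 8 h, SPRY2, a feedback inhibitor of growth factor signalling, by 1.68 and 1.15, and RHOB by 1.59 and 0.65 (limma adjusted p at most 0.00116). SPRY1 fell by 0.96 and 0.76 (adjusted p = 9.90e-06 and 2.31e-04). RECK, a protease inhibitor gene, fell by 0.93 at 20 h and TPM1, a tropomyosin gene, by 0.69. Of the 25 tested genes named as microRNA hosts, 0 were higher and 3 lower at 20 h and 1 was higher and 1 lower at 8 h. MIR924HG fell by 1.76 at 20 h and 0.58 at 8 h, and MIR210HG rose by 0.55 at 8 h (adjusted p = 0.00508), where MIR210 itself was not called. MIR570HG, whose span holds MIR570, fell by 0.87 at 20 h (adjusted p = 0.0314), lost without control replicate 1 or 3 or 20 h replicate 1 or 2 (adjusted p from 0.0563 to 0.111) and with the replicate block (adjusted p = 0.0531). Without 20 h replicate 2 its fall was 0.57.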

How the data were processed

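Total RNA of 9 MDA-MB-231 samples was labelled and hybridised to Affymetrix whole-transcript arrays, per the labels' protocols. The deposited table holds log2 values per probe set, made by the authors with RMA in Affymetrix Expression Console, per the submitters' processing notes; software versions and the genome build are not given in the sources used here. The deposited values were used without further normalisation.

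Of 53617 probe sets, 25713 were in the annotation table, 23558 with a single gene symbol and 2155 with several; those with several were not used, which leaves out 185 microRNA symbols. The brightest probe set of each gene was kept, giving 22109 genes, and 3 symbols were updated through their gene IDs. RMA pulls the arrays to a common distribution, so a shift shared by most genes cannot be seen.

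All 9 arrays entered 1 fit with 3 group means (R 4.3.3, limma 3.58.1, lmFit and eBayes), with Benjamini-Hochberg adjustment over all genes and a threshold of 0.05. The fit was tested on simulated data. Counts over loci were made with pandas 2.3.3 and numpy 2.4.6 under Python 3.11.15, and plots with matplotlib 3.10.9. Alternatives were a level filter, quantile normalisation again, centring, mean probe sets, fits of 2 groups, trended variance, array weights, the replicate block, a higher level and each array left out. Deviations of same-numbered arrays from their group means correlated between -0.318 and 0.111, so no pairing by number was seen. Arrays of different numbers were not compared, so a pairing is not excluded.

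Values on every array are given for the let-7 loci, loci with the highest and lowest called changes, the brightest loci and called members of listed families. The loci and gene lists were chosen with earlier results of these data known.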

Additional observations from a re-analysis of the deposited data

Results flagged for a closer look

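For 4 loci called in opposite directions at 20 h and 8 h against control, the difference between the treated groups is given as a description. The choice of these loci fixes that difference, so it carries no test. MIR3143 was higher at 20 h than at 8 h by 3.08 on the log2 scale. MIR644A had a log2 change of -1.90 for 20 h minus 8 h, MIR3122 one of -1.55 and MIR1206 one of -1.28.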

How the results depend on the processing

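Leaving out 1 array at a time gave 24 to 36 loci higher and 28 to 36 lower at 20 h, 9 to 16 higher and 8 to 16 lower at 8 h, and 15 to 30 higher and 25 to 33 lower at 20 h than at 8 h. With quantile normalisation again, 53 loci were higher and 30 lower at 20 h; the cause was not tested. Restricting the loci to a mean above 5, which leaves fewer loci, gave 18 higher and 17 lower at 20 h, 8 and 10 at 8 h, and 14 and 14 for 20 h minus 8 h. With the replicate number as a block, 37 were higher and 35 lower at 20 h, 13 and 14 at 8 h, and 26 and 32 for 20 h minus 8 h. No called change of a named locus reversed under the 17 settings. Of 89 called results of 44 named loci, 60 were called under every setting. The median log2 change of the loci at 8 h, -0.009, was 0.015 with quantile normalisation again. For 20 h minus 8 h, that setting gave 35 loci higher and 30 lower, in place of 27 and 31. Over all detected loci, 44 of 66 calls at 20 h, 14 of 33 at 8 h and 31 of 58 for 20 h minus 8 h held under all 17 settings, and every lost call was lost without at least 1 array. The number of arrays and the larger spread of these probe sets limit small changes.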
